A study of Mus musculus with 8 samples.

Results

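Replication-dependent histone genes encode the proteins around which newly copied DNA is wound. They were taken as all genes whose symbol on the array starts with Hist1h, Hist2h, Hist3h or Hist4h, with every probe set kept, which gave 78 of 43681 probe sets and 68 gene symbols. Of the 78 probe sets, 7 stood for the linker histone H1, 24 for H2a, 19 for H2b, 13 for H3 and 15 for H4. The Hist1 cluster gave 60 of them, Hist2 13, Hist3 4 and Hist4 1. The symbols also cover some untypical genes: Hist1h1t, Hist1h2aa and Hist1h2ba are known as testis histones, and RefSeq lists Hist1h2al and Hist3h2bb-ps as transcribed pseudogenes. RNA came from whole lungs of BALB/c mice, all of which carried an IL-1b transgene described as lung-specific. One group had received doxycycline (dox), which induces IL-1b in these mice (5 arrays), and its controls had received water (3 arrays). Lungs were taken after 7 days, at about 12 weeks of age per the labels and at 5 weeks per the header of a deposited table. Per the labels, the dox lungs showed inflammation and emphysema. The sources used here do not name the promoter behind the transgene, and dox was not analysed here in mice lacking it. Nothing states that each array is a separate animal, so the p-values measure only how far these arrays spread, which may be technical.

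Replication-dependent histone mRNAs are made in large amounts during S phase, when cells need new nucleosomes. Most of them end in a stem-loop bound by the protein SLBP instead of a poly(A) tail, and they are quickly degraded when DNA synthesis stops. The genes stand in clusters and have no introns, and many H2a genes share a short divergent promoter with an H2b gene. Many copies of H2a, H2b, H3 or H4 encode nearly the same protein as others of their class. In the convention of Affymetrix-type names, which the probe sets follow, the suffix x_at marks sets with some probes that can bind other sequences, s_at marks sets shared by several transcripts, and a_at marks sets shared by transcripts of the same gene. Among histone probe sets 30 of 78 ended in x_at (38.5%), against 4.95% over the whole array. RefSeq gives the symbol of another member as a synonym for 13 of 13 H4 genes, 12 of 12 H3 genes and 7 of 18 H2b genes. It does so for 0 of 19 H2a genes and 0 of 6 H1 genes. Synonyms are a matter of naming, and sequence identity between copies was not computed for any class. The labels do not say how cDNA synthesis was primed, so how well RNA without a poly(A) tail was captured is unknown.

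The promoters of 4 H2a genes of the Hist1 cluster are printed because the results turn on this class. Hist1h2ad, Hist1h2af and Hist1h2ao had the largest rises among probe sets tied to a RefSeq gene, and Hist1h2ab had the lowest change of the class, which did not pass the test. The windows run from 250 bases before to 50 bases after the RefSeq start in GRCm38.p6. They lie at chr13:23574131-23574430 for Hist1h2ad, chr13:23533625-23533924 for Hist1h2af, chr13:21810117-21810416 for Hist1h2ao and chr13:23750838-23751137 for Hist1h2ab, all on the plus strand. Capitals mark matches, on either strand, to the TATA box (TATAAA), the CCAAT box (CCAAT), the octamer (ATTTGCAT) and the H1 box (AAACACA).
Hist1h2ad: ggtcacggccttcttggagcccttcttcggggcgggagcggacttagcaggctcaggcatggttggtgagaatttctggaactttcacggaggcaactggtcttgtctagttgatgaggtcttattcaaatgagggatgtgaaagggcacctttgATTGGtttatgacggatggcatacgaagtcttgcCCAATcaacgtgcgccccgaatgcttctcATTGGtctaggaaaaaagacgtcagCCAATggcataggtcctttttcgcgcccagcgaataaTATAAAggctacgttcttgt
Hist1h2af: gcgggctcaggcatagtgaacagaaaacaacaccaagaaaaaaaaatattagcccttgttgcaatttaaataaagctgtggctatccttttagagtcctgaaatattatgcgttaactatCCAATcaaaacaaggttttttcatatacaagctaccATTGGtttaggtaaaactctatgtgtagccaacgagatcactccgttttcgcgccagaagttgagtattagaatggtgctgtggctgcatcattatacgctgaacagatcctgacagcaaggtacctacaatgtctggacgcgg
Hist1h2ao: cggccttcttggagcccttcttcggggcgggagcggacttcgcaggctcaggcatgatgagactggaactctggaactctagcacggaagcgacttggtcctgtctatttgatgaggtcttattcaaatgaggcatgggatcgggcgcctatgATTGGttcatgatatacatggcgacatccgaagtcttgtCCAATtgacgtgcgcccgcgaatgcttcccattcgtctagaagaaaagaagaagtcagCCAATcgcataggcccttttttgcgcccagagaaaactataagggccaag
Hist1h2ab: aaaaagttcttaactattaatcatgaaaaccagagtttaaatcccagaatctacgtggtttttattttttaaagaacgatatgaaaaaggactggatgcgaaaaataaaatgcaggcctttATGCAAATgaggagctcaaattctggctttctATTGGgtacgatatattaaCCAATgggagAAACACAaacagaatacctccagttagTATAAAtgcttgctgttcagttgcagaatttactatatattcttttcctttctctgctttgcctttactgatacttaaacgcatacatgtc

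RefSeq held a promoter for 61 of the 68 member genes. The CCAAT box was found in 18 of 18 H2a, 15 of 15 H2b, 10 of 10 H3, 6 of 6 H1 and 3 of 12 H4 promoters, against 37.4% of all 32851 promoters in the table. The octamer was found in 7 of 18 H2a and 6 of 15 H2b promoters, against 1.74% of all promoters. In 9 divergent pairs of an H2a and an H2b gene the starts lie 164 to 281 bases apart, so their windows overlap. A match can thus count for both classes, and the H2a and H2b counts are not separate. The TATA box was found in 11 of 18 H2a promoters, against 13.6% of all, and the H1 box in 5 of 6 H1 promoters, against 7.18% of all. Among H2a genes, the octamer stood in 2 of 9 promoters of genes with a probe set that rose in dox lungs and in 5 of 9 of the others. The CCAAT box stood in 9 of 9 of both. Of the 10 probe sets that rose, 9 end in x_at, and their signal may come from other copies. The split may thus follow the kind of probe set as well as the gene. A match is a string of letters at any place in the window, and binding was not measured.

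In dox lungs, the signal of 10 H2a probe sets of the Hist1 cluster rose, by up to 2.38-fold, while no probe set of H1, H2b, H3 or H4 passed the test. Array values are given in intensity units. Each probe set was tested with limma on log2 intensity, and p-values were adjusted over all 43681 probe sets by Benjamini-Hochberg. "Rose" and "fell" are used of probe sets with an adjusted p under 0.05, a threshold that 3.1% of all probe sets passed. Of the 78 histone probe sets 10 rose (12.8%), against 2.31% of all probe sets. In limma 0 of 78 fell, against 0.79% of all. At an unadjusted p under 0.05, 15 histone probe sets were higher and 1 was lower, beside 16.2% of all probe sets in either direction. The 10 rises stood for 9 gene symbols, all of class H2a. As 9 of these probe sets end in x_at, they may not be separate measurements. Thus 10 of 24 H2a probe sets rose (41.7%), beside 0 of 54 of the other classes in limma (4 at an unadjusted p under 0.05). Of those 54, 35 were near background (defined below), where a change may not be seen, as were 7 of the 24 for H2a. Among sets not near background, 9 of 17 rose for H2a and 0 of 19 for the other classes in limma. The difference between classes was not tested. The median log2 change was 0.16 for H2a, -0.07 for H1, -0.04 for H2b, -0.04 for H3 and 0.04 for H4, beside -0.02 for all probe sets.

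**Figure D1:**
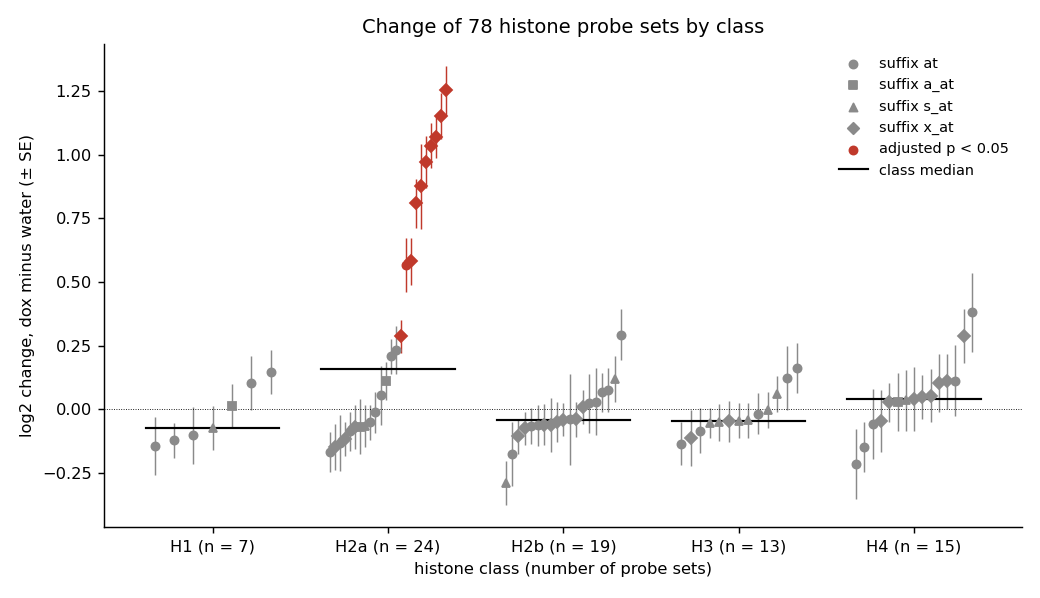
Log2 change (dox minus water, with SE from limma) of each of the 78 histone probe sets, by class, with marker shapes for the suffix of the name, red for an adjusted p under 0.05 and black lines for class medians. All 10 red points lie in H2a, between 0.29 and 1.25, and the medians of H1, H2b, H3 and H4 lie between -0.07 and 0.04.

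Hist1h2ap, a copy of canonical H2a, had the largest change. Its probe set for the transcript BC090402, which matched no RefSeq entry, read 1087, 1352, 1133, 1082 and 1044 in dox lungs, against 495, 506 and 432 in water lungs. All 5 dox arrays were higher than any water array, and the log2 change was 1.25 ± 0.10 SE (limma adjusted p = 4.72e-05). Its other probe set read 872, 737, 912, 681 and 725 in dox lungs, against 387, 421 and 389 in water lungs. The groups were again apart, with a log2 change of 0.97 ± 0.10 SE (1.96-fold, limma adjusted p = 0.000366).

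Hist1h2ad and Hist1h2af, further copies of canonical H2a whose promoters are printed above, changed by similar amounts. Hist1h2ad read 205, 193, 210.3, 173 and 174 in dox lungs, against 81.8, 93.7 and 82.4 in water lungs. It rose by 1.15 ± 0.09 SE on the log2 scale (2.22-fold, limma adjusted p = 5.08e-05). Hist1h2af read 182, 183, 207, 169 and 171 in dox lungs, against 89.8, 84.9 and 85.8 in water lungs. It rose by 1.07 ± 0.08 SE (2.10-fold, limma adjusted p = 3.73e-05). In both, the spread inside each group was small beside the gap between the groups. Hist1h2ao, another of the printed promoters, had the brightest histone probe set. It read 3098, 2833, 3288, 2646 and 2617 in dox lungs, against 1356, 1481 and 1389.8 in water lungs, with no overlap. It rose by 1.04 ± 0.09 SE (2.05-fold, limma adjusted p = 8.49e-05).

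Smaller rises were read by 4 further x_at probe sets, whose signal may come from more than the H2a copy they are named for. The x_at probe set of Hist1h2ai read 545, 525, 556, 430.4 and 459.7 in dox lungs, against 273, 294 and 291 in water lungs (0.81 ± 0.09 SE, limma adjusted p = 0.000822). Hist1h2an read 101, 99.8, 88.6, 100.3 and 91.9 in dox lungs, against 58.5, 74.9 and 60.4 in water lungs (0.58 ± 0.09 SE, limma adjusted p = 0.00576). Neither had overlapping groups. Hist1h2ah read 103, 96.5, 107, 82.4 and 89.6 in dox lungs, against 40.7, 73.5 and 46.7 in water lungs. Its water arrays were far apart, and the log2 change was 0.88 ± 0.17 SE (limma adjusted p = 0.0162). That call was lost without water 1 (adjusted p = 0.0619) or water 3 (0.0738). Hist1h2ak read 183, 189.8, 186, 181 and 197 in dox lungs, against 152, 159.6 and 149 in water lungs. It had the smallest of the rises (0.29 ± 0.06 SE, 1.22-fold, limma adjusted p = 0.0378). It did not pass when any 1 of the 8 arrays was left out (adjusted p = 0.055 to 0.126) or with array weights (0.0517).

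Hist1h2ae was the only one of the 10 whose name did not end in x_at. It read 12.7, 14.9, 12.6, 11.8 and 12.4 in dox lungs, against 8.48, 10.2 and 7.53 in water lungs (0.57 ± 0.11 SE, limma adjusted p = 0.0164). The groups did not overlap, but all values were near background, taken as group means under 52.1 units, the 95th percentile of 1049 probe sets for olfactory receptors. With 16 units added before log2 its change was 0.22, and the call was lost without water 1 (adjusted p = 0.0619) or water 3 (0.0695). By the same yardstick 42 of all 78 histone probe sets were near background in both groups. They were 7 of 24 for H2a, 5 of 7 for H1, 10 of 19 for H2b, 6 of 13 for H3 and 14 of 15 for H4.

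**Figure D2:**
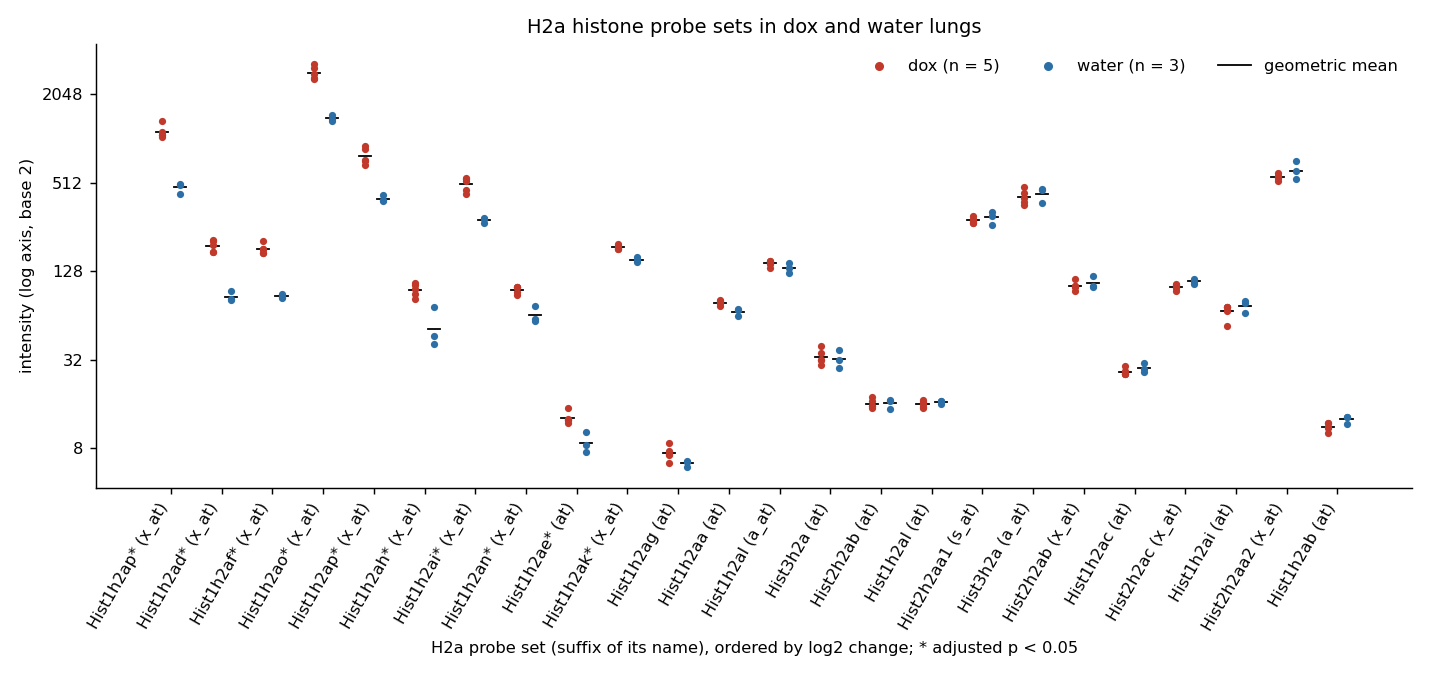
Intensity (log axis) of the 24 H2a probe sets in 5 dox arrays (red) and 3 water arrays (blue), ordered by log2 change, with black bars for geometric means and asterisks for an adjusted p under 0.05. The 10 probe sets with asterisks have all dox values above all water values, and the other 14 have log2 changes between -0.17 and 0.23.

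Within H2a, the rises lay in the Hist1 cluster and mostly in x_at probe sets. Of the Hist1 H2a probe sets ending in x_at 9 of 9 rose, with a median log2 change of 0.97, beside 1.11% of all x_at probe sets of the array. In the Hist2 cluster it was 0 of 3 in limma (0 at an unadjusted p under 0.05), with a median of -0.12. Hist2h2aa2 had -0.15 ± 0.09 SE, Hist2h2ac -0.12 ± 0.07 SE and Hist2h2ab -0.07 ± 0.09 SE on the log2 scale. Of the 12 H2a probe sets with another suffix, 1 rose. All dox arrays lay above all water arrays for 11 of 24 H2a probe sets and for 1 of the 54 of other classes, against 6.04% of all probe sets. The opposite order was seen for 2 of all 78 histone probe sets, against 6.12%.

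The H2a genes of Hist1 without a call were measured by probe sets ending in at or a_at. Hist1h2aa, the testis H2a, read 78.5, 78.01, 80.2, 81.99 and 74.1 in dox lungs, against 70.7, 69.99 and 63.4 in water lungs. The groups did not overlap, but the change of 0.21 ± 0.07 SE did not pass (limma adjusted p = 0.154). Hist1h2ac (-0.09 ± 0.08 SE) and Hist1h2ab (-0.17 ± 0.08 SE) were near background with overlapping groups, and Hist1h2ag, also near background, had 0.23 ± 0.10 SE. The pseudogene Hist1h2al had -0.05 ± 0.07 SE and 0.11 ± 0.07 SE from its 2 probe sets. Hist1h2ai gave unlike readings from its 2 probe sets. The set ending in at read 73.7, 73.1, 69.04, 54.3 and 73.5 in dox lungs, against 67.1, 77.9 and 80.04 in water lungs. Its log2 change was -0.13 ± 0.11 SE (95% interval -0.38 to 0.11), beside 0.81 ± 0.09 SE (0.60 to 1.02) for the x_at set, and the difference between these sets was not tested. Hist3h2a, the H2a gene of the Hist3 cluster, had -0.07 ± 0.11 SE and 0.06 ± 0.12 SE, with overlapping groups.

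H2b, the partner of H2a in the nucleosome, had 0 of 19 probe sets called in limma, with 2 at an unadjusted p under 0.05, of opposite sign. Hist1h2bl, the brightest of the class, read 2462, 2410.1, 2383, 2380.4 and 2393 in dox lungs, against 2543, 2385 and 2676 in water lungs. The groups overlapped, and the log2 change was -0.07 ± 0.06 SE (limma adjusted p = 0.636, 95% interval -0.22 to 0.07). Hist1h2bh read 2399, 2390.3, 2269.8, 2347 and 2189 in dox lungs, against 2633, 2363 and 2491 in water lungs (-0.11 ± 0.07 SE). Hist1h2bc read 1574, 1545, 1529, 1529.6 and 1507 in dox lungs, against 1297, 1595 and 1527 in water lungs (0.07 ± 0.08 SE). These bright sets thus had overlapping groups as well. For the 9 H2b probe sets not near background, the log2 changes ran from -0.11 to 0.07 and the 95% intervals of single sets lay within -0.29 to 0.24. All 8 H2b probe sets ending in x_at were among them. Hist2h2be had the lowest change of all 78, at -0.29 ± 0.09 SE (limma adjusted p = 0.115). It read 28.5, 31.5, 32.8, 33.97 and 29.9 in dox lungs, against 38.8, 41.8 and 34.3 in water lungs, near background but without overlap. The highest change of the class came from the testis H2b Hist1h2ba, at 0.29 ± 0.10 SE (limma adjusted p = 0.17), also near background.

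H2a and H2b neighbours that stand back to back were then compared. RefSeq starts placed 9 pairs of measured H2a and H2b genes in divergent orientation, with 164 to 281 bases between their starts. The H2a gene rose in 7 of these pairs, and the H2b gene passed in 0 of 9 in limma (Hist1h2ba alone had an unadjusted p under 0.05). In the 7 pairs the H2b log2 changes lay between -0.07 and 0.12. Some of these H2b sets were near background, where a change may not be seen. They were Hist1h2br (means of 13.1 in dox and 12.1 in water lungs), Hist1h2bg (12.7 and 12.1) and the Hist1h2bp set ending in at (8.05 and 8.42). The value of 0.12 came from Hist1h2br. Beside Hist1h2ad, with its rise of 1.15, stands Hist1h2bf, which read 269, 243, 254, 257 and 241 in dox lungs, against 262, 246 and 271 in water lungs. Its groups overlapped (-0.04 ± 0.07 SE). Within single arrays, the log2 signal of Hist1h2ad minus that of Hist1h2bf was -0.58 to -0.27 in dox lungs and -1.72 to -1.40 in water lungs, a shift of 1.19. In the other 6 pairs whose H2a gene rose, the same shift was 0.92 for Hist1h2ah and Hist1h2bk, 0.88 for Hist1h2ai (x_at) and Hist1h2bl, 0.85 for Hist1h2ap and Hist1h2br, 0.57 and 0.65 for Hist1h2an and the 2 sets of Hist1h2bp, 0.49 for Hist1h2ae and Hist1h2bg, and 0.35 for Hist1h2ak and Hist1h2bn. With the Hist1h2ai set ending in at, the shift against Hist1h2bl was -0.06. In the pairs without an H2a call it was 0.27 for Hist1h2ag and Hist1h2bj and -0.09 for Hist1h2aa and Hist1h2ba. These shifts were not tested, and the signal of an x_at probe set cannot be assigned to a single gene copy.

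**Figure D3:**
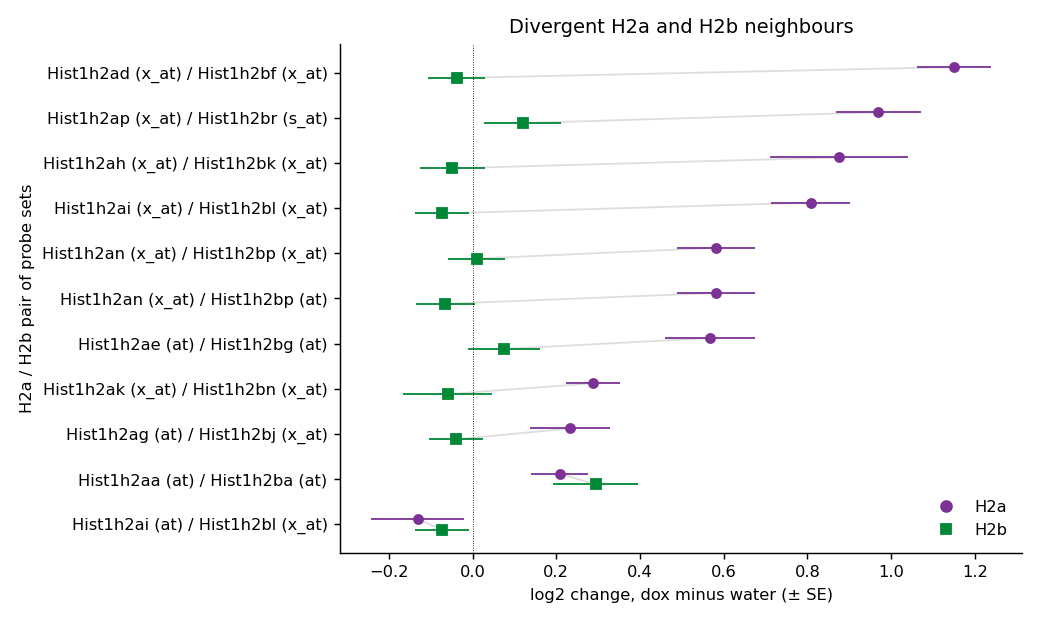
Log2 change (dox minus water, with SE from limma) of H2a probe sets (purple circles) and of the H2b probe sets of their divergent neighbours (green squares), with a row for each pair of probe sets. The top pair is Hist1h2ad at 1.15 with Hist1h2bf at -0.04, and in the 7 gene pairs whose H2a gene rose the green squares lie between -0.07 and 0.12. Among these, Hist1h2br, Hist1h2bg and the Hist1h2bp set ending in at were near background.

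H3, which with H4 forms the core tetramer of the nucleosome, had 0 of 13 probe sets called in limma and 0 at an unadjusted p under 0.05. The s_at sets of Hist1h3b, Hist1h3d, Hist1h3e and Hist2h3b, 5 in all, read 313.8 to 403.7 units over all arrays, with log2 changes from -0.05 to 0.06. As s_at marks sets shared by several transcripts, these sets may not be separate measurements. Hist1h3b read 359.5, 357, 379, 372 and 336 in dox lungs, against 356, 376 and 384 in water lungs (-0.04 ± 0.07 SE), and its groups overlapped. A Hist2h3b set read 361, 357, 361, 348 and 356 in dox lungs, against 370.3, 372 and 369 in water lungs. Here all dox values lay just below all water values, and the change of -0.05 ± 0.06 SE did not pass (limma adjusted p = 0.713). For the 7 H3 probe sets not near background, the 95% intervals of single sets lay within -0.21 to 0.40.

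H4 had 0 of 15 probe sets called in limma, with 2 at an unadjusted p under 0.05. Hist4h4, the single gene of its cluster, read 20.2, 13.02, 12.8, 16.4 and 11.7 in dox lungs, against 11.2, 11.3 and 10.97 in water lungs. The groups did not overlap, but the dox arrays were spread, and the change of 0.38 ± 0.16 SE did not pass (limma adjusted p = 0.254). Hist1h4k had 0.29 ± 0.11 SE from its x_at set and -0.21 ± 0.14 SE from its other set, neither past the threshold. The a_at set of Hist2h4, the only H4 set not near background, read 60.8, 45.5, 49.7, 62.7 and 46.8 in dox lungs, against 49.9, 53.6 and 51.3 in water lungs (0.03 ± 0.11 SE), with overlapping groups. The other 14 of the 15 sets were near background in both groups.

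H1, which binds the DNA between nucleosomes, had 0 of 7 probe sets called in limma and 0 at an unadjusted p under 0.05. Hist1h1c, the brightest of the class, read 590.3, 466, 593, 561 and 435 in dox lungs, against 552, 541 and 598 in water lungs. The groups overlapped (-0.10 ± 0.11 SE, limma adjusted p = 0.716, 95% interval -0.35 to 0.14). Hist1h1e had -0.14 ± 0.11 SE and 0.02 ± 0.08 SE from its 2 probe sets, and Hist1h1a had the highest change of the class (0.15 ± 0.09 SE), near background.

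Histone variants included 3 probe sets of 19 that rose (15.8%) and 0 that fell in limma, against 2.31% and 0.79% of all probe sets. At an unadjusted p under 0.05, 5 were higher and 3 lower, beside 16.2% of all probe sets in either direction. Their median log2 change was 0.02. Many variants are made also outside S phase from polyadenylated mRNA, but this was not checked for each gene of the list, H2afx included. H2afz, which encodes the variant H2a.Z, read 5486, 5597, 5259, 4904 and 5083 in dox lungs, against 3693, 3742 and 3439 in water lungs. Its probe set ends in x_at, so the signal may come from other sequences too. All dox arrays were higher (0.54 ± 0.07 SE, limma adjusted p = 0.00175). H2afx, the variant phosphorylated near DNA breaks, read 694, 687, 669, 611 and 641 in dox lungs, against 449, 542 and 514 in water lungs, without overlap. It rose by 0.40 ± 0.08 SE (limma adjusted p = 0.0221), a call lost without dox 1, 2 or 3 or water 1 or 3 (adjusted p up to 0.0801). H2afy, which encodes a macroH2a, rose by 0.70 ± 0.11 SE in 1 of its 3 probe sets. H3f3b, a gene of the variant H3.3 and the brightest of the list without a call, had 0.04 ± 0.07 SE.

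Factors that transcribe histone genes or process their mRNA had 1 of 34 probe sets (22 genes) called higher (2.94%) and 0 lower in limma. Over all probe sets 2.31% rose. At an unadjusted p under 0.05, 7 of the 34 were higher and 0 lower, beside 16.2% of all probe sets in either direction. The median log2 change was 0.07. The call was for Eri1, a nuclease that trims the end of histone mRNA. Of its 4 probe sets, 1 read 196, 197, 189.9, 182 and 189 in dox lungs, against 136, 153 and 149.7 in water lungs. That set rose by 0.38 ± 0.07 SE (limma adjusted p = 0.0115), and the other 3 had log2 changes of 0.06 to 0.15 and did not pass. Slbp, the stem-loop binding protein, read 908, 1061, 986, 923 and 933 in dox lungs, against 805, 845 and 809.6 in water lungs. Its groups did not overlap, but the change of 0.23 ± 0.07 SE did not pass (limma adjusted p = 0.134). Npat, the coactivator of histone genes, had 0.06 ± 0.09 SE and -0.19 ± 0.10 SE. Of 37 probe sets for 19 histone chaperones and assembly factors, 2 rose (5.41%) and 0 fell in limma, with a median of 0.02. At an unadjusted p under 0.05, 5 of the 37 were higher and 2 lower. Whether the shares of these 2 lists differ from those of all probe sets was not tested. Asf1b, a chaperone of H3 and H4, read 122, 108, 118, 109 and 111 in dox lungs, against 83.4, 73.4 and 88.3 in water lungs (0.48 ± 0.08 SE, limma adjusted p = 0.00785). Chaf1a, a subunit of the assembly factor CAF-1, rose by 0.34 ± 0.08 SE (limma adjusted p = 0.0353), a call lost when any array but water 2 was left out (adjusted p up to 0.125).

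Lists of cell cycle genes had the most calls of the 5 related gene lists in the same lungs. Over all probe sets 2.31% rose and 0.79% fell. Of 48 probe sets for 34 S phase genes 14 rose (29.2%) and 0 fell in limma (0 lower at an unadjusted p under 0.05). Their median log2 change was 0.23, and 14 of the 48 were near background. Rrm2, a subunit of ribonucleotide reductase, in 1 of its 2 probe sets read 91.9, 98.4, 78.3, 85.2 and 96.7 in dox lungs, against 38.2, 43.2 and 44.3 in water lungs. All dox arrays were higher (1.10 ± 0.09 SE, limma adjusted p = 7.57e-05), and its other probe set had 0.53 ± 0.14 SE and did not pass. Uhrf1, which helps copy DNA methylation, rose by 1.00 ± 0.07 SE, and Pcna, the sliding clamp, had 0.31 ± 0.08 SE and did not pass (limma adjusted p = 0.0592), although it passed under 5 of the alternatives (adjusted p = 0.0113 to 0.0457). Of 45 probe sets for 30 mitosis genes 27 rose (60%) and 0 fell in limma (0 lower at an unadjusted p under 0.05). Their median was 0.60, and 18 of the 45 were near background. Mki67, the proliferation marker, read 187, 177, 213, 175 and 188 in dox lungs, against 69.04, 73.6 and 57.8 in water lungs (2.82-fold, limma adjusted p = 1.27e-05). Whether the H2a rises differ in size from those of these lists was not tested.

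**Figure D4:**
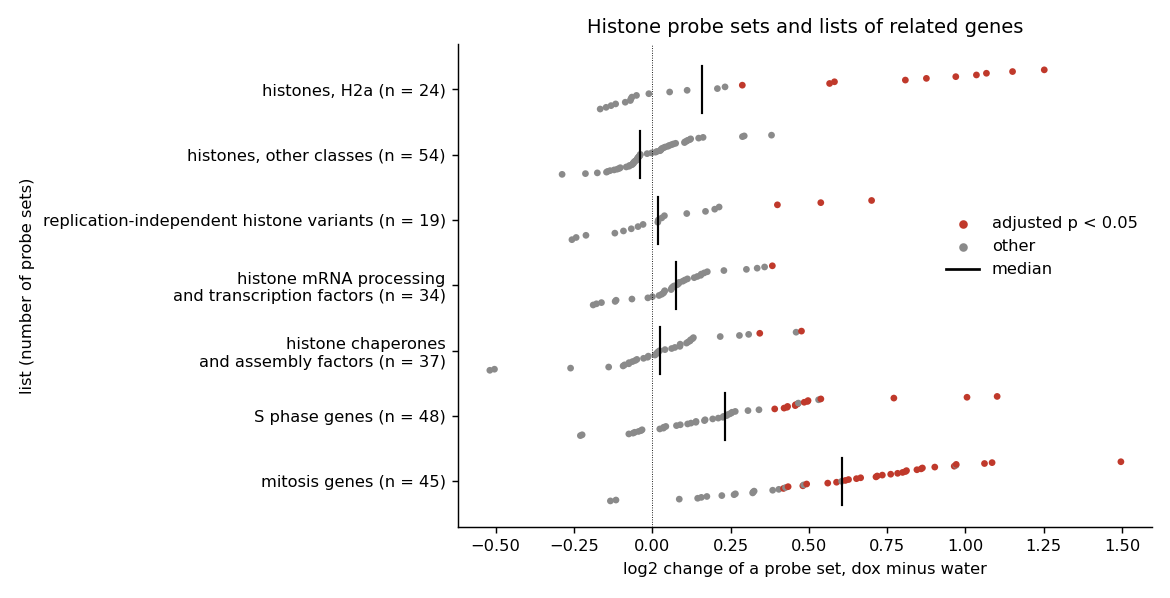
Log2 change (dox minus water) of single probe sets of H2a, of the other histone classes and of 5 lists of related genes, with red for an adjusted p under 0.05 and black lines for medians. H2a has 10 of 24 red points and the other histone classes 0 of 54, beside 14 of 48 for S phase genes and 27 of 45 for mitosis genes. Of the 54 points of the other classes, 35 were near background, as were 7 of the 24 of H2a. So were 14 of the 48 of S phase genes and 18 of the 45 of mitosis genes. Of all probe sets of the array, 2.31% rose.

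Array medians were 40.8 to 41.9 units. Of the markers of lung, 0 of 7 probe sets passed in limma (2 lower at an unadjusted p under 0.05), with a summed level of 66522 to 68309 in dox lungs and 68879 to 70415 in water lungs, without overlap. The surfactant gene Sftpc had -0.01 ± 0.06 SE. Its means of 25683 in dox and 25849 in water lungs were close to the highest of all probe sets (26974). So near the top of the scale a change may not be seen. Sftpb (-0.17 ± 0.06 SE) and the alveolar type 1 marker Ager (-0.19 ± 0.06 SE) had every dox array below every water array. Of 7 macrophage probe sets 5 rose (71.4%, against 2.31% of all probe sets), with a summed level of 4867 to 5835 in dox lungs and 2914 to 3184 in water lungs. Of 6 neutrophil probe sets 5 rose (83.3%, against 2.31%), with sums of 4550 to 8811 in dox lungs and 1864 to 4218 in water lungs. Cxcr2 and Ly6g were near background. The S100a9 call was lost with a trend and robust prior (adjusted p = 0.0997) and without dox 2 (0.0591), water 2 (0.0754) or water 3 (0.0648). Of 8 lymphocyte probe sets 0 passed in limma (0 at an unadjusted p under 0.05), with sums of 805 to 1479 in dox lungs and 1128 to 2339 in water lungs. Of 4 erythroid probe sets 0 passed in limma (1 lower at an unadjusted p under 0.05), with sums of 26242 to 28724 in dox lungs and 27854 to 29507 in water lungs. Most of these sums came from Hbb-b1, which also read near the top of the scale (means of 26125 in dox and 26974 in water lungs). The part of these cells in the H2a result was not tested, and in whole lung more cells with a transcript and more transcript per cell cannot be told apart. Among the 10 H2a probe sets that rose, dox 3 was the highest dox array in 6 and dox 4 the lowest in 7, and water 2 was the highest water array in 9.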

How the data were processed

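Biotin-labelled cRNA from 8 lung samples was hybridised to 1-colour arrays, per the labels' protocols. The authors deposited linear intensity values made with RMA per the submitters' processing notes, whose version the sources used here do not give. RMA equalises arrays and compresses large differences, so a change of total RNA cannot be seen. Gene symbols came from an annotation column of a text table that the authors deposited, whose 8 columns of values match no sample label and were not used. RefSeq (GRCm38.p6) matched 65 of the 78 histone probe sets by accession and 12 by an older symbol.

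Values were taken to log2, and all 43681 probe sets were tested, dox against water, by 2-sided moderated tests of limma 3.58.1 (R 4.3.3; functions lmFit and eBayes) without covariates and with Benjamini-Hochberg adjustment. SE and 95% intervals are limma's. Members, lists, motifs and rules were chosen with earlier results of these data known. Named were all histone probe sets past the threshold, the brightest and both extremes of each class, all probe sets of genes with several, and in each list up to 4 calls and the brightest gene without a call; Ager, Hist1h2aa, Hist1h2ac, Hist1h2ag, Hist1h2bc, Hist1h2bf, Hist1h2bg, Hist1h2bh, Hist1h2bj, Hist1h2bk, Hist1h2bn, Hist1h2br, Hist2h2aa2, Hist2h2ac, Npat, Sftpb and Slbp and the weaker Rrm2 set were added after their values were seen. On simulated data of this comparison (43681 probe sets), the test found 26% of the probe sets altered 1.3-fold, 92% at 1.5-fold and 100% at 2-fold, with 10 false calls among 169. The simulation altered 200 probe sets and drew noise independently, whereas the data gave 1355 calls. These rates may therefore not carry over to the data. Same-numbered arrays of both groups did not deviate together (r = 0.011, 0.036 and -0.11), so the numbers were not used as pairs. The alternatives were another prior, array weights, 2 further normalizations, a filter on dim probe sets, a single probe set per gene, an offset, the replicate block and leaving out arrays. The number of arrays limits the precision.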

Additional observations from a re-analysis of the deposited data

Results flagged for a closer look

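Among the 42 sets of 5 dox values looked at, 1 array lay apart from its group. For the Hist1h2ai probe set ending in at, dox 4 read 54.3 units, the other dox arrays read 69.04 to 73.7, and the gap took 0.786 of the whole range, above the limit of 0.71 for 5 arrays. Chance puts about 1 in 20 groups past this limit.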

How the results depend on the processing

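The count of 10 histone probe sets that rose was 9 or 10 under the 8 alternatives that kept all arrays and 7 to 9 when single arrays were left out (7 without water 1 or water 3). Under each of them the calls were among the same 10, and H1, H2b, H3 and H4 had 0 calls in limma in either direction. The 7 rises other than Hist1h2ae, Hist1h2ah and Hist1h2ak kept their calls wherever the probe set was tested. With the replicate number as a block, 9 histone probe sets rose and Hist1h2ak did not pass (limma adjusted p = 0.238). The numbers are not known to pair the arrays. No water array shares the number of dox 4 or dox 5, so these 2 arrays add nothing to the change in that fit. Its counts thus rest on fewer arrays than those of the main fit. The block also gave 575 higher and 101 lower calls over all probe sets (against 1010 and 345), 6 for S phase genes, 1 for variants, 1 for chaperones, 0 for processing factors, where Eri1 no longer passed, and no call for S100a9 (0.138), Csf3r (0.0852), Csf1r (0.0569) or Cxcr2 (0.0562), and an H1 median of -0.00572. All probe sets gave 673 lower calls with a trend and robust prior, 624 with 16 units added, and 146 to 338 without single arrays. Chaperone calls were 4 with that prior, subtracted medians, dim sets left out, 1 probe set per gene or 16 units added, 1 with array weights, and 1 to 2 higher and 0 to 2 lower without single arrays. Processing calls were 0 with 1 probe set per gene and 1 to 2 without single arrays. The H2a median was 0.232 with 1 probe set per gene and 0.0854 with 16 units added, an offset that shrinks changes of dim sets by construction. The mitosis median was 0.424 with that offset and 0.463 to 0.668 without single arrays. The median of all probe sets was -0.0145 after a further quantile normalization, -0.00146 with medians subtracted and -0.0139 with the offset. Other causes of these shifts were not tested.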
